A study of Mus musculus with 4 samples.

Results

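The 33 genes described here encode enzymes of cholesterol and fatty acid synthesis, the proteins that regulate them, and 3 proteins that carry or remove cholesterol. They were chosen as a fixed list of gene symbols, and all 33 were found among the 31053 genes of the count matrix. By role, 6 genes encode mevalonate steps, 11 encode sterol steps, 5 encode the sterol-sensing control proteins, 8 encode fatty acid steps and 3 act in transport and turnover. They were measured by single-nucleus RNA sequencing (10x 3′ gene expression, polyA RNA) in mediobasal hypothalamus from wild-type mice that ate chow freely. There were 2 groups, mice given saline and mice given insulin, with 2 libraries each (4 libraries in all), and nuclei of all libraries were cleaned by sorting before library preparation. The dose, route, time after treatment, age, sex and number of mice per library are not given in the sources used here, and every p-value below rests on the spread between libraries alone. The deposited cell table places 1 Saline and 1 Insulin library in each of 2 sequencing runs, 230 and 232, and the libraries are named below by treatment and run (Saline 230, Saline 232, Insulin 230, Insulin 232).

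Cholesterol is made from acetyl-CoA through mevalonate to squalene and lanosterol, and a last series of sterol steps converts lanosterol to cholesterol. SREBP-2, encoded by Srebf2, is escorted from the endoplasmic reticulum by Scap when membrane sterol is low and then switches on the genes of the pathway, whereas the Insig proteins hold Scap back when sterol is plentiful. SREBP-1, encoded by Srebf1, acts mainly on fatty acid synthesis, and insulin is known to raise its activity in liver. The brain makes its own cholesterol because lipoproteins of the blood do not cross the blood-brain barrier. Astrocytes export cholesterol on apolipoprotein E particles loaded through the transporter Abca1, oligodendrocytes use large amounts for myelin, and neurons clear the excess by converting it to 24-hydroxycholesterol with Cyp46a1.

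The promoters of 3 members are shown because the results turn on these genes. Hmgcs1, the first committed step, held the searched sterol element; Insig1 and Abca1 were picked with their values in view. The sequences are RefSeq windows (build GRCm38.p6), printed 5′ to 3′ on the strand of the gene and ending at the base before the start of the annotated transcript. Capitals mark the sterol element TCACNCCAC, the NF-Y box CCAAT and the E-box CACGTG, found on either strand, so that CCAAT on the other strand reads ATTGG. Hmgcs1 is at chr13:119690101-119690350 (plus strand), Insig1 at chr5:28071162-28071362 (plus strand) and Abca1 at chr4:53159896-53160145 (minus strand).
Hmgcs1: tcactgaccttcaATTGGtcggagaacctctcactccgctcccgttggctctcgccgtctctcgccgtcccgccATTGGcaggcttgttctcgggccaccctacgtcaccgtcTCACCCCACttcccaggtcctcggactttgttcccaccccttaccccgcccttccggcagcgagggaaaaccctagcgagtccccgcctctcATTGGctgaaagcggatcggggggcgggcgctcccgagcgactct
Insig1: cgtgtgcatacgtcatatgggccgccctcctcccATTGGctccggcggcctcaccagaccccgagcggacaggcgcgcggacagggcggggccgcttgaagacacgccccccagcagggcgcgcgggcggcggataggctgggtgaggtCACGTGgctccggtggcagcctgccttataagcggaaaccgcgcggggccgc
Abca1: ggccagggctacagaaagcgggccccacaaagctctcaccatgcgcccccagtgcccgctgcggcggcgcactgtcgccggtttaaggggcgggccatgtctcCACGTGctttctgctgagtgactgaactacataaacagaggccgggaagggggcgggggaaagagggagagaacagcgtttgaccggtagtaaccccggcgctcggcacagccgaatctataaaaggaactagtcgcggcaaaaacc

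The Hmgcs1 window held 1 sterol element, TCACCCCAC, whose first base lies 137 bases before the start, and 3 NF-Y boxes. The Insig1 window, shortened to 201 bases because the rest is annotated exon, held 1 NF-Y box and 1 E-box. The Abca1 window held 1 E-box and no NF-Y box. RefSeq windows of 250 bases were available for 28 of the 33 members and for 27025 genes in all. The sterol element was in the window of 1 member (3.57%, against 1.22% of all genes) and the E-box in 7 (25.0% against 6.86%). CCAAT was in 22 members (78.6% against 37.5%) and the Sp1 box GGGCGG in 21 (75.0% against 35.4%). The shares were counted in the full 250 bases, including any annotated exon, unlike the printed windows. These are exact letter matches, searched on both strands, and are a description of these windows only.

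The 4 libraries held 8352 to 9796 annotated nuclei and 63590421 to 71391593 unique molecular identifiers (UMIs, 1 per captured RNA molecule), and 34984 nuclei carried 1 of 8 cell type labels of the authors. Of 36205 barcode sequences, 318 occurred in more than 1 library. Neurons numbered 23261 (median 8445 UMIs per nucleus), astrocytes 5407 (3148), oligodendrocytes 2921 (2354), oligodendrocyte precursors (OPC) 876 and microglia 442. Several labels went against the markers. Nuclei labelled Endothelial (1441) carried 2634 CPM of the ependymal and tanycyte list, 2987 CPM of the astrocyte list and 289 CPM of the endothelial list, and Cldn5, an endothelial tight junction gene, was at 1.69 CPM. Nuclei labelled Mural (362) carried 3272 CPM of the endothelial list and 1831 CPM of the mural list. Both are called by their labels below, as are the 274 nuclei labelled Ependymo, of which 16 came from Insulin 230. Microglia carried 1725 CPM of the neuronal list beside 1943 CPM of their own. CPM are UMIs per 1000000 UMIs of the same cell type and library, so they give a share of the RNA and not an amount per nucleus, and fewer transcribing cells and less RNA per cell cannot be told apart.

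Each cell type was compared with the mean of the other 7 over the 4 libraries (edgeR quasi-likelihood test, library as a block, Benjamini-Hochberg adjustment over all genes and types, threshold 0.05). Of the members, 32 passed the filter of 50 UMIs. Fdps, farnesyl diphosphate synthase, had 40 UMIs in the 8 types and was not tested. Its annotated locus shares a strand with the gene model Gm43738.

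Members of every role were higher in astrocytes than in the mean of the other 7 types. In astrocytes 30 of 32 members were higher and 0 were lower, where 26.8% of all genes were higher and 15.8% lower. All 16 tested synthesis genes were higher, as were all 5 control genes, 7 of 8 fatty acid genes and 2 of 3 transport genes, and the median log2 difference of the members was 1.05 against 0.15 for all genes. Under the other settings with values scaled to total UMIs, 26 to 30 members were higher and 0 lower. With RLE size factors 26 were higher, where 20.9% of all genes were higher and 20.2% lower. With plain total UMIs 26 were higher, where 18.0% of all genes were higher and 23.8% lower. The shares under the remaining settings are not given here. Counted per nucleus instead of per total UMIs, 16 members were higher and 3 lower (background 11.1% and 42.2%). An astrocyte nucleus carried fewer UMIs than a neuronal one, and the median of all genes shifted to -0.47. Astrocytes had the highest mean level of 17 of the 33 members and oligodendrocytes of 5 (Hmgcs1, Ebp, Acaca, Scd2 and Elovl5).

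Oligodendrocytes came next, with 19 members higher and 1 lower against a background of 22.5% higher and 21.0% lower. Per nucleus this turned to 4 higher and 20 lower (background 6.08% and 59.1%), with the median of all genes at -1.06. Neurons had 7 members higher and 13 lower (background 38.9% higher and 21.5% lower) with a median of -0.09 against 0.29 for all genes. Per nucleus neurons had 26 members higher and 6 lower (background 81.9% and 5.43%), with the median of all genes at 1.50. Most members thus took a larger share of the RNA in astrocytes. The count of members higher per nucleus in neurons was near the share of all genes.

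**Figure D1:**
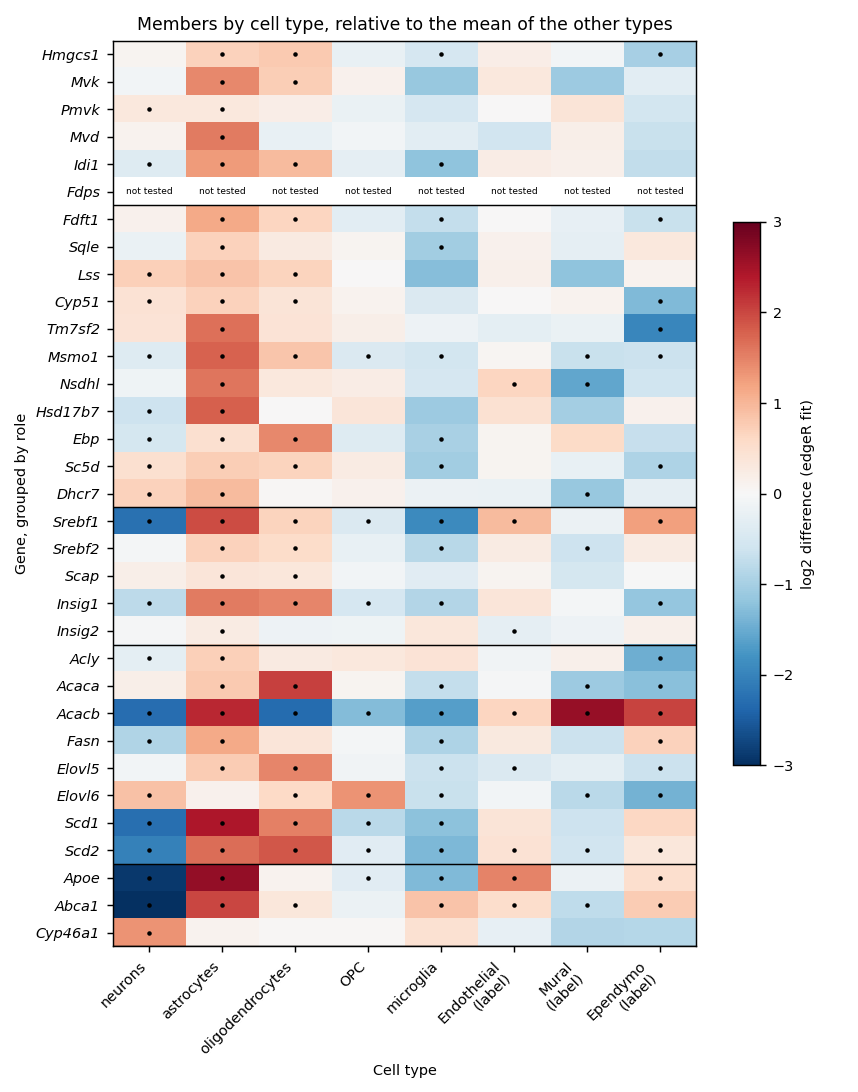
Log2 difference of each member (rows, ordered by role) between a cell type (columns) and the mean of the other types, edgeR estimates over 4 libraries, with members past the adjusted threshold of 0.05 marked. The astrocyte column is above 0 for 30 called members and below 0 for 0, whereas the microglia column has 18 called lower.

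The 17 genes of cholesterol synthesis summed to 563 ± 58.9 CPM in astrocytes (SD, n = 4), 402 ± 26.7 CPM in oligodendrocytes and 317 ± 25.4 CPM in neurons. By library the sums were 528, 537, 651 and 536 CPM in astrocytes (Saline 230, Saline 232, Insulin 230, Insulin 232, the order used throughout). In oligodendrocytes they were 370, 404.5, 399 and 435 CPM, and in neurons 286, 348, 322 and 313 CPM. Every astrocyte library lay above every oligodendrocyte and neuronal library. Counted per 1000 nuclei the order changed, with 3077 UMIs in neurons, 1905 in astrocytes and 1023 in oligodendrocytes.

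Among the mevalonate steps, Hmgcs1 (chr13:119690379-119708260), HMG-CoA synthase, was called higher in oligodendrocytes and in astrocytes. It reached 45.8 ± 3.88 CPM in oligodendrocytes and 44.0 ± 5.63 in astrocytes, which overlapped, and 32.5 ± 1.36 in neurons, where it was not called. Idi1, which isomerizes isopentenyl diphosphate, was at 22.3 ± 4.23 CPM in astrocytes and overlapped with oligodendrocytes at 18.4, with a log2 difference of 1.28 ± 0.15 (SE) in astrocytes (adjusted p = 2.0e-09). Mvd, the decarboxylase that yields isopentenyl diphosphate, was at 14.5 ± 3.81 CPM in astrocytes and lowest in oligodendrocytes at 4.87 CPM. Mvk, mevalonate kinase, ranged from 14.1 CPM in astrocytes to 3.31 CPM in Mural-labelled nuclei. Pmvk, the next kinase, was an exception, with its highest mean of 31.8 CPM in Mural-labelled nuclei.

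Among the sterol steps, Msmo1 (chr8:64718139-64733792), the C4-methylsterol oxidase, was highest in astrocytes. Its levels in astrocytes were 120, 124, 168 and 133.5 CPM, and in neurons 30.1, 46.1, 42.7 and 37.0 CPM. The astrocyte libraries did not overlap with those of any other type, and the log2 difference was 1.78 ± 0.09 (adjusted p = 5.2e-21). Oligodendrocytes followed with 75.5 CPM. Fdft1, squalene synthase, also stood above all other types without overlap in astrocytes, at 70.4 ± 11.0 CPM. Tm7sf2, a sterol C14 reductase, did so at 16.2 ± 2.01 CPM, although its locus shares a strand with Vps51 and reads of the pair may be divided between them. Nsdhl and Hsd17b7, which act after Msmo1 in C4 demethylation, were at 47.0 and 16.9 CPM in astrocytes against 17.4 and 4.15 CPM in neurons. Lss, Cyp51, Sc5d and Dhcr7 had astrocyte means of 10.9, 40.7, 36.6 and 21.1 CPM, each within the range of the next type. Ebp, the sterol isomerase, peaked in oligodendrocytes instead (20.9 ± 3.36 CPM; log2 difference 1.45 ± 0.16, adjusted p = 5.7e-10), and the highest mean of Sqle, squalene epoxidase, was 38.5 CPM in Ependymo-labelled nuclei, close to 38.1 CPM in astrocytes.

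The control genes divided the types in another way. Srebf1 was at 73.3, 75.9, 78.9 and 95.9 CPM in astrocytes and at 6.55, 6.62, 5.97 and 8.13 CPM in neurons. These groups did not overlap, and the mean level in neurons was 8.42% of that in astrocytes (log2 difference of neurons -2.24 ± 0.12, adjusted p = 1.3e-19). Srebf2 (chr15:82147181-82205379) varied far less, from 104.6 ± 15.7 CPM in astrocytes to 70.6 CPM in neurons and 51.0 CPM in microglia. Insig1, itself a target of the SREBP proteins, was at 59.4 ± 7.80 CPM in astrocytes and 55.8 CPM in oligodendrocytes, which overlapped, against 15.3 CPM in neurons. Insig2 and Scap were the flattest, with the highest mean 1.74 and 1.38 times the lowest, and Insig2 was highest in microglia at 64.4 CPM. Scap was highest in Endothelial-labelled nuclei at 41.7 CPM and lowest in OPC at 30.3 CPM.

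The fatty acid genes marked oligodendrocytes and astrocytes with different members. Acaca (chr11:84129672-84401651), the cytosolic acetyl-CoA carboxylase, was at 794, 617, 812 and 677 CPM in oligodendrocytes, above every library of the other types, with a log2 difference of 2.05 ± 0.10 (adjusted p = 7.0e-21). Its mitochondrial counterpart Acacb had 2.41 CPM in oligodendrocytes (log2 difference -2.30 ± 0.33, adjusted p = 2.0e-07) and at 38.9 CPM in astrocytes (2.26 ± 0.14, adjusted p = 1.7e-17). The 2 carboxylases thus ran in opposite directions in oligodendrocytes. Acacb was highest in Mural-labelled nuclei, at 67.8 ± 19.3 CPM (2.60 ± 0.28, adjusted p = 1.9e-10), and was also called higher in Ependymo-labelled nuclei (2.03 ± 0.28) and, by a smaller margin, in Endothelial-labelled nuclei (0.64 ± 0.22).

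Scd2, a stearoyl-CoA desaturase, reached 564 ± 94.4 CPM in oligodendrocytes and 515 CPM in astrocytes, which overlapped, and at 57.6 CPM in neurons. Its log2 difference in oligodendrocytes was 1.85 ± 0.09 (adjusted p = 3.7e-21). Scd1, its neighbour on chromosome 19, was highest in astrocytes (36.7 ± 9.70 CPM; 2.43 ± 0.14, adjusted p = 2.7e-18) and lowest in neurons at 2.30 CPM. The pair is similar in sequence, so the division of reads between them is uncertain. Fasn, fatty acid synthase, was at 28.3 CPM in astrocytes, 17.5 in oligodendrocytes and 8.78 in neurons. Elongases were split, with Elovl5 highest in oligodendrocytes (76.7 ± 4.73 CPM) and Elovl6 highest in OPC (131 ± 21.2 CPM; 1.35 ± 0.12, adjusted p = 1.3e-12), followed by neurons (101 CPM). Elovl6 was the 1 fatty acid gene not called in astrocytes. Acly, which supplies cytosolic acetyl-CoA, was highest in microglia at 37.4 CPM and lowest in Ependymo-labelled nuclei at 12.6 CPM (-1.46 ± 0.31, adjusted p = 1.4e-04).

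Apoe and Abca1, of the transport genes, had wide ranges, as did Acacb, whose highest mean was 28.2 times its lowest. Apoe (chr7:19696109-19699188) was at 4117, 4698, 4902 and 5089 CPM in astrocytes and at 119.5, 215, 165 and 203 CPM in neurons. The astrocyte mean was 26.8 times the neuronal mean, and the log2 difference was 2.64 ± 0.11 in astrocytes (adjusted p = 4.1e-24) and -2.91 ± 0.17 in neurons (adjusted p = 5.7e-19). Abca1 (chr4:53030787-53159895) was at 329, 269, 358 and 305 CPM in astrocytes and at 11.5, 9.45, 11.3 and 12.9 CPM in neurons, a ratio of means of 27.9 and a log2 difference of -3.59 ± 0.14 in neurons (adjusted p = 3.8e-25). Neuronal Apoe and Abca1 were thus at 3.73% and 3.58% of the astrocyte level, and the 5 astrocyte markers were at 0.427% to 2.13% of it. Apoe was at 1521 to 2055 UMIs per 1000 nuclei in each of the 35 neuron populations described below. The part of free RNA in these UMIs was not tested. Cyp46a1 was the 1 member with its highest mean in neurons (29.9 ± 6.87 CPM; 1.35 ± 0.11, adjusted p = 2.0e-13), though microglia at 21.3 CPM overlapped.

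**Figure D2:**
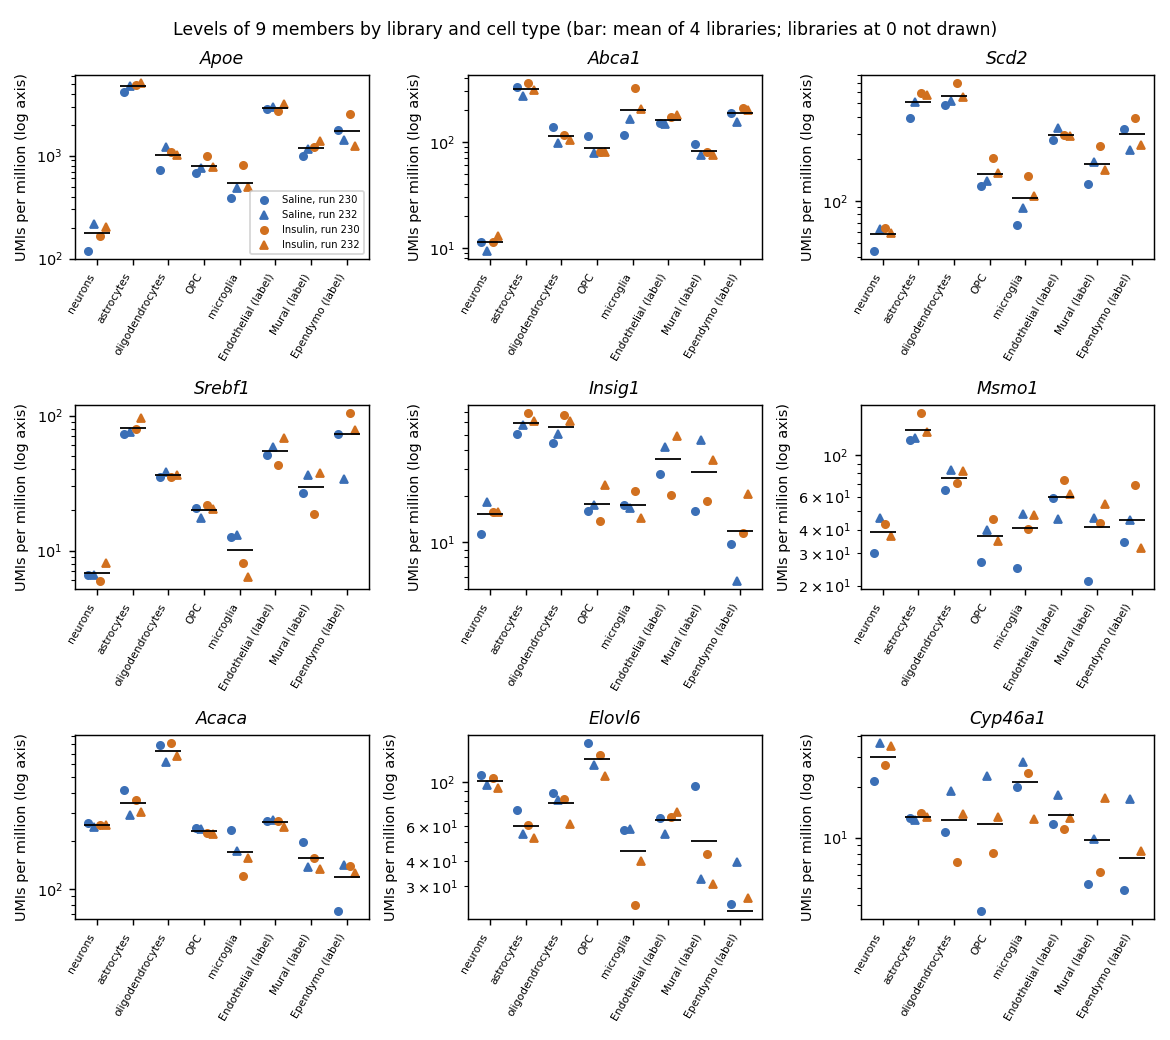
CPM (log axis) of 9 members by cell type, with a point for each library, coloured by treatment and shaped by run, and a bar at the mean of the 4 libraries; libraries at 0 are not drawn. Apoe and Abca1 in neurons lie below every astrocyte library, and Cyp46a1 has its highest mean in neurons.

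In microglia 1 member was higher and 18 were lower (background 18.3% and 9.49%), with a median of -0.71 against 0.08 for all genes. Per nucleus 3 were higher and 10 lower (background 23.8% and 5.82%). The lower members with the largest differences were Srebf1 (10.0 CPM; -1.91 ± 0.26), Acacb (9 UMIs in all; -1.65 ± 0.46) and Scd2 (104 CPM; -1.35 ± 0.14). The 1 higher member was Abca1, at 200 CPM (0.86 ± 0.13, adjusted p = 3.6e-07). The neuronal marker sum in microglia was 2325, 2103, 609 and 1861 CPM by library, and Abca1 was highest, at 318 CPM, in Insulin 230, where that sum was lowest. Its part in the differences was not tested.

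OPC had 1 member higher (Elovl6) and 7 lower (background 20.4% and 11.2%), among them Acacb (4.88 CPM; -1.31 ± 0.32, adjusted p = 8.5e-04) and Scd1 (5.54 CPM; -0.82 ± 0.30, adjusted p = 0.030). Per nucleus OPC had 8 higher and 1 lower (background 38.1% and 4.22%). Endothelial-labelled nuclei had 6 higher and 2 lower (background 18.0% and 13.7%), led by Apoe (2916 ± 192 CPM; 1.48 ± 0.12) and Srebf1 (54.8 CPM; 0.94 ± 0.12). Those nuclei carried the 5 astrocyte markers at 23.7% (Aldh1l1) to 55.8% (Slc1a2) of the astrocyte level, and Apoe at 62.0% of it. Mural-labelled nuclei had 1 higher and 8 lower (background 13.6% and 13.1%), among them Nsdhl (9 UMIs; -1.55 ± 0.41) and Dhcr7 (8 UMIs; -1.13 ± 0.41, adjusted p = 0.036), and per nucleus 1 higher and 20 lower. Per nucleus, 9.0% of all genes were higher and 29.4% lower in the Mural-labelled nuclei. Ependymo-labelled nuclei had 10 members higher and 4 lower per nucleus (background 23.4% and 5.11%). Scaled to total UMIs they had 6 higher and 11 lower (background 16.1% and 16.8%). Tm7sf2 was among the lower ones (-1.96 ± 0.71, adjusted p = 0.026) on 3 UMIs, all in Saline 232. Across the other settings scaled to total UMIs, the lower counts ran from 12 to 23 in microglia, 2 to 11 in OPC, 2 to 10 in Mural-labelled and 6 to 13 in Ependymo-labelled nuclei. With RLE size factors and with plain total UMIs, 9.81% and 6.97% of all genes were lower in microglia, and 13.0% and 17.2% in OPC. These shares were 8.88% and 6.46% in Mural-labelled and 11.2% and 13.0% in Ependymo-labelled nuclei. Leaving out single libraries moved the lower counts over all 8 types from 60 to between 39 and 49, the lowest without Insulin 232. The shares of all genes under the remaining settings and with libraries left out are not given here.

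Other genes of the pathways were taken from 2 lists. The background for both lists was 26.8% of all genes higher and 15.8% lower in astrocytes. It was 38.9% and 21.5% in neurons, and 22.5% and 21.0% in oligodendrocytes. Of 21 further synthesis and control genes, 14 were higher and 3 lower in astrocytes, 11 and 6 in neurons, and 6 and 6 in oligodendrocytes. Mlxipl, which encodes the carbohydrate-responsive factor ChREBP, was highest in microglia at 73.2 ± 30.2 CPM, against 15.6 CPM in astrocytes and 0.448 CPM in neurons. It and Elovl2, an elongase of long polyunsaturated fatty acids, had no UMI in Mural-labelled nuclei, so no fold is given there. Of the 18 tested genes of transport, storage and turnover, 10 were higher and 4 lower in astrocytes, 5 and 11 in neurons, and 7 and 5 in oligodendrocytes. Cyp27a1, the sterol 27-hydroxylase, was at 0.695 CPM in neurons (-5.30 ± 0.36) and 85.5 CPM in oligodendrocytes. Apod, a small lipid carrier, was at 1138 ± 507 CPM in Mural-labelled nuclei (4.47 ± 0.17) and 612 ± 64.0 CPM in oligodendrocytes (4.06 ± 0.15).

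Neurons were then compared with one another, over the 35 populations of the authors with at least 10 nuclei in every library. Of 1120 member tests, 139 were higher and 75 lower, where 11.3% and 5.39% of all tests were. Each of the 32 tested members was called in at least 1 population, but the share of all genes so called is not given here. Summed cholesterol synthesis had a median of 319 CPM over the 35 populations and ran from 177 to 391 CPM outside M1.GABA, which had 168 nuclei with a median of 1336.5 UMIs. Elovl6 was called higher in 10 populations and lower in 4, Srebf2 in 9 and 4, and Acaca in 8 and 7. Apoe was called higher in 5 and lower in 9, with means of 109 to 986 CPM, but its UMIs per 1000 nuclei ran only from 1521 to 2055, and per nucleus it was called higher in 1 population and lower in 0. Abca1 was called higher in 9 and lower in 0. Without the library block, 79 member tests were higher and 47 lower, and per nucleus 231 and 126. The shares of all tests under these settings are not given here.

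**Figure D3:**
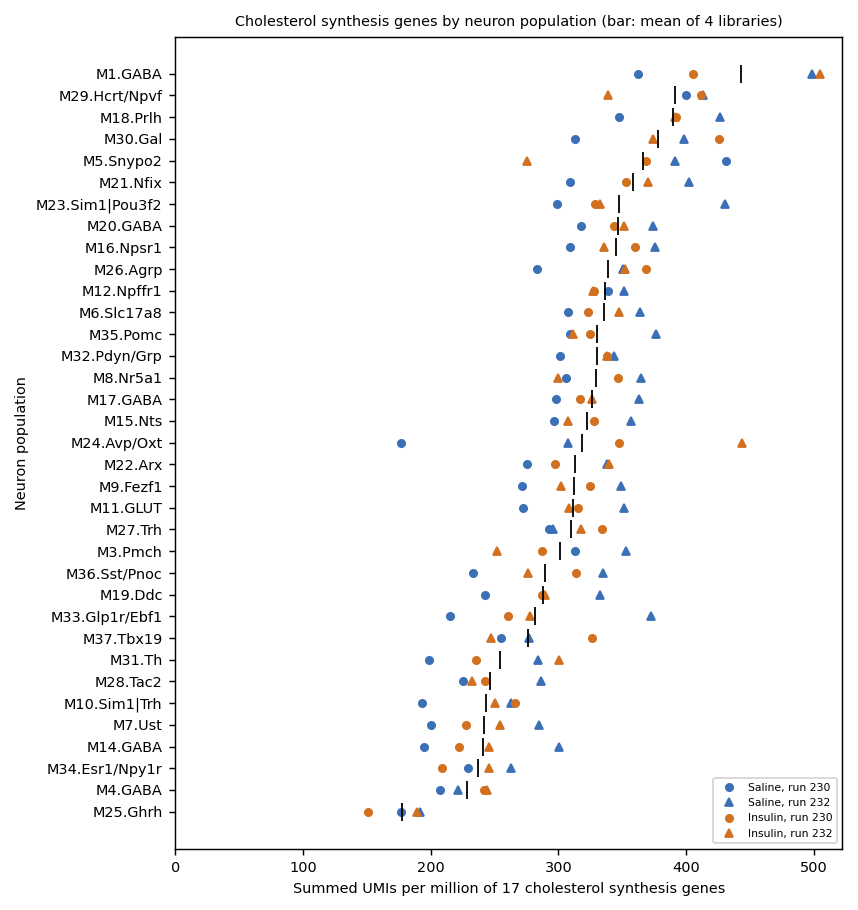
Summed CPM of the 17 cholesterol synthesis genes (x axis) in each neuron population (rows, ordered by the mean), with a point for each library, coloured by treatment and shaped by run, and a bar at the mean. M25.Ghrh has the lowest synthesis sum, 177 CPM, against a median of 319 CPM.

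The population M25.Ghrh, named for the growth hormone-releasing hormone gene, stood at the low end for sterol genes and the high end for Abca1. Its 253 nuclei (81, 59, 45 and 68 per library) carried Ghrh at 24.9, 122, 25.1 and 110 CPM, and no other population had a mean above 16.1 CPM. Of 32 members, 3 were higher and 12 lower in this population, where 8.49% of all genes were higher and 7.19% lower. Of the 16 synthesis genes 7 were lower and 0 higher, all 16 had a negative log2 difference, and their median was -0.81 against -0.05 for all genes. Across the other settings, including each library left out, 5 to 10 synthesis genes were lower and 0 higher, with the fewest without Insulin 230. The shares of all genes under those settings are not given here.

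Summed cholesterol synthesis in M25.Ghrh was 177, 191.5, 151 and 189 CPM, all below the population median of 319 CPM. Ranks, ranges and medians of single genes over the populations leave out M1.GABA here and in the rest of the M25.Ghrh description. The lower synthesis genes were Hmgcs1, Fdft1, Sqle, Cyp51, Msmo1, Nsdhl and Sc5d. Msmo1 was at 9.32, 16.1, 22.9 and 13.2 CPM (log2 difference -1.37 ± 0.24, adjusted p = 1.6e-06), whereas the other populations had means of 22.0 to 63.6 CPM. Nsdhl was at 6.21, 3.58, 4.57 and 8.80 CPM (-1.55 ± 0.35, adjusted p = 2.9e-04) and Hmgcs1 at 17.1, 17.9, 13.7 and 17.6 CPM (-0.99 ± 0.24, adjusted p = 0.0011). Fdft1, Cyp51, Sc5d, Msmo1, Nsdhl and Tm7sf2 each had their lowest mean of the 34 populations here, although Tm7sf2 was not called.

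Of the 5 control genes, Srebf2 and Insig2 were called lower. Srebf2 was at 17.1, 19.7, 29.7 and 30.8 CPM (-1.60 ± 0.20, edgeR adjusted p = 1.4e-11). The other populations had means of 35.7 to 89.8 CPM, except M1.GABA, which had 93.6 CPM on 22 UMIs. In M25.Ghrh the Saline libraries were below the Insulin libraries, and all 4 were below the median of the other populations, 69.8 CPM. Srebf2 was also called lower in M34.Esr1/Npy1r (-1.01 ± 0.13), M28.Tac2 (-0.97 ± 0.17) and M14.GABA (-0.45 ± 0.11). The median log2 difference of the synthesis genes there was -0.51, -0.52 and -0.28, against 0.05, -0.01 and 0.04 for all genes. Insig2 was also lowest in M25.Ghrh, at 31.7 CPM, and Scap, at 27.7 CPM, was next to lowest without being called. Srebf1, at 7.91 CPM, ranked 25 from the lowest of the 34 populations. Insig1, at 11.0 CPM against a median of 14.8 CPM in the other populations, ranked 6 from the lowest. Neither was called. Cyp46a1 was called lower too, at 16.7 CPM (-0.78 ± 0.22).

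On the other side, Abca1 was at 51.3, 51.9, 54.8 and 55.0 CPM in M25.Ghrh, with little spread between libraries, against a median of 9.67 CPM in the other populations (2.44 ± 0.24, adjusted p = 7.6e-17). The elongases Elovl5, at 69.4 ± 24.7 CPM (1.01 ± 0.15, adjusted p = 9.0e-09), and Elovl6, at 154.5 ± 28.3 CPM (0.56 ± 0.11, adjusted p = 2.6e-05), were also higher. All 3 had their highest mean of the 34 populations here. Apoe, at 185 CPM, ranked near the middle, and the sum of astrocyte markers, 57.5 CPM, was close to the median of the populations, 57.8 CPM. The sum of OPC markers was the lowest of the 34 populations (202 CPM, against a median of 786 CPM), and that of endothelial markers was the third lowest (4.46 against 7.38 CPM). Their part in the differences was not tested. The fatty acid genes as a group did not share the low position, with 2 higher, 2 lower (Scd2 and Acaca) and a sum of 531 CPM against a median of 493 CPM.

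**Figure D4:**
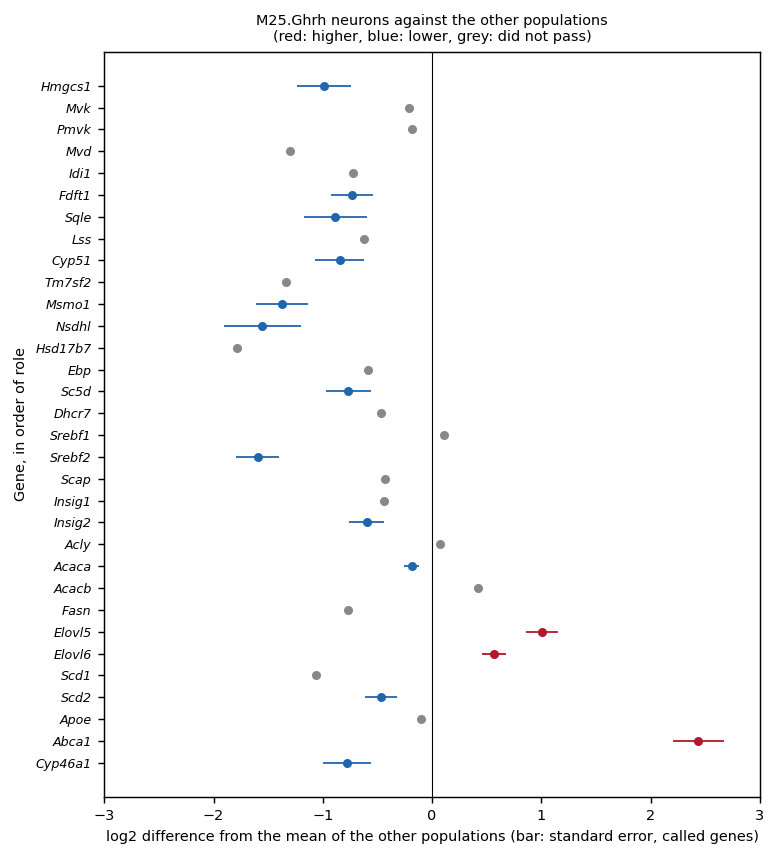
Log2 difference of each tested member between M25.Ghrh and the mean of the other neuron populations, ordered by role, with standard errors drawn for the called members only. All 16 synthesis genes lie below 0 (7 called), while Abca1 is at 2.44.

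Abca1 was also among the largest differences in 3 further populations. In M37.Tbx19 it was at 39.4, 41.1, 52.6 and 42.4 CPM (2.08 ± 0.21, adjusted p = 2.4e-16). M33.Glp1r/Ebf1 had 56.2, 13.2, 60.1 and 41.6 CPM (2.18 ± 0.22, adjusted p = 3.5e-16), with Saline 232 well below the rest on 42 nuclei. In M35.Pomc it was at 23.6, 34.8, 33.4 and 48.0 CPM (1.78 ± 0.22, adjusted p = 7.3e-12). These values are below the astrocyte mean of 315 CPM. Abca1 had no UMI in M1.GABA, and without that population the difference in M25.Ghrh was 2.23.

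The remaining large differences between populations, Apoe apart, rested on few UMIs. Acacb was higher in M28.Tac2 (6.57 ± 3.92 CPM, 15 UMIs; 1.66 ± 0.49) and in M33.Glp1r/Ebf1 (5.23 ± 3.39 CPM, 18 UMIs; 1.55 ± 0.45). Hsd17b7 was highest in M5.Snypo2 (9.10 ± 3.04 CPM, 30 UMIs; 1.65 ± 0.36, adjusted p = 1.3e-04). Scd1 had 0 of 2877200 UMIs in M33.Glp1r/Ebf1, which allows up to 1.04 CPM at 3 counts (counting error only), and its highest mean was 6.55 CPM in M24.Avp/Oxt. Mvd had 2 UMIs in M4.GABA and was highest in M30.Gal at 14.1 CPM. In M1.GABA, Apoe was at 656, 1278, 570 and 1441 CPM (2.12 ± 0.12) and Idi1 was called on 9 UMIs. The astrocyte marker sum was 213 CPM in M1.GABA against 35.1 to 152 CPM in the other populations, and per nucleus both differences changed sign.

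The highest synthesis sum was in M1.GABA, at 443 CPM. It rested on 29 UMIs of the mevalonate steps and 90 of the sterol steps. Per 1000 nuclei M1.GABA was the lowest of the 35 populations for both, at 161 and 549 UMIs. M25.Ghrh had 415 and 1073 UMIs. High levels were also found in M29.Hcrt/Npvf (391 ± 35.1 CPM), M18.Prlh (389 ± 32.4 CPM), M30.Gal (378 ± 48.1 CPM) and M5.Snypo2 (366.5 ± 66.3 CPM), whose libraries overlapped. In M18.Prlh 9 members were higher and 0 lower (background 11.4% and 2.38%). In M8.Nr5a1, which is named for a gene of ventromedial hypothalamic neurons, 13 members were higher and 2 lower (background 25.5% and 8.88%), 9 of the higher ones in synthesis. Without the library block these were 7 higher and 0 lower, and the share of all genes under that setting is not given here. M4.GABA had 1 higher and 8 lower (background 11.9% and 7.82%), a synthesis sum of 229 ± 17.4 CPM and the lowest sum of fatty acid genes (327 ± 19.2 CPM). Acaca, for instance, was at 161 CPM there and at 363 ± 15.2 CPM in M31.Th, its highest population.

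Across 34 populations, without M1.GABA, the sums of the mevalonate and of the sterol steps ran together (Pearson 0.82, Spearman 0.82). The fatty acid genes followed them less closely, with Spearman coefficients of 0.28 for the mevalonate and 0.36 for the sterol steps. Within synthesis, 115 of 120 gene pairs had a positive Spearman coefficient, with a median of 0.45, and the closest pair was Cyp51 and Msmo1 at 0.77, which both act soon after lanosterol. The populations share libraries and a common denominator, and the coefficient of the synthesis sum with UMIs per nucleus was 0.13. These coefficients describe the populations and carry no test, and no coefficients of other gene pairs are set beside them.

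Insulin was compared with Saline within each cell type, with 2 libraries against 2. No member was called in 230 tests by edgeR, and 0.0% of all genes were called. At an unadjusted p under 0.05 there were 2 member tests (0.87%, against 2.08% of all tests), and DESeq2 gave 0 calls and 0 such tests. With the sequencing run as a block, edgeR gave 0 member calls and 10 tests at an unadjusted p under 0.05 (4.35% against 6.32%), with a smallest adjusted p of 0.347, and 161 calls over all genes. With 2 libraries a group, the absence of calls does not show that the levels were alike.

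The tests with unadjusted p under 0.05 were Scap in oligodendrocytes and Idi1 in Mural-labelled nuclei. Scap was at 53.3 and 42.8 CPM with Saline and at 33.3 and 23.8 CPM with Insulin, without overlap (log2 difference -0.74 ± 0.29, edgeR adjusted p = 1.00). Idi1 was at 5.93 ± 0.877 CPM with Saline and 23.3 ± 15.4 CPM with Insulin (log2 difference 1.97 ± 0.88, edgeR adjusted p = 1.00). These Idi1 levels rest on few UMIs. The Mural-labelled libraries held 188212 and 305192 UMIs with Saline and 160824 and 292452 with Insulin. All 6 mevalonate genes together had 94 UMIs in these nuclei.

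In astrocytes, both Insulin libraries lay above both Saline libraries for 9 of 32 members and below for 1 (background 15.2% and 11.7%). The 9 were Hmgcs1, Msmo1, Sc5d, Insig1, Srebf1, Scd1, Scd2, Apoe and Cyp46a1. Scd2 was at 394 and 507 CPM with Saline and 589 and 569 CPM with Insulin (log2 difference 0.35 ± 0.17, edgeR adjusted p = 1.00, and adjusted p = 0.347 with the run block). Scd1 was at 22.4 and 39.2 CPM with Saline and 41.6 and 43.6 CPM with Insulin (0.44 ± 0.28), and Hmgcs1 at 40.4 and 38.8 against 51.3 and 45.4 CPM (0.27 ± 0.18). No adjusted p fell under the threshold. Within runs, 12 of 32 members were higher with Insulin in both and 5 lower in both, where 29.1% of all genes with at least 100 UMIs in astrocytes were higher in both and 23.1% lower. Scd2 differed by 0.58 in run 230 and 0.17 in run 232, and Scd1 by 0.89 and 0.15. Without Saline 232, Scd1 in astrocytes was called (0.91, edgeR adjusted p = 0.020), at a setting where 1.52% of all tests were called. With any of the other 3 libraries left out, 0 members were called in the cell types.

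Scd2 was also above both Saline libraries in oligodendrocytes (487 and 517 against 700 and 553 CPM) and in OPC (129 and 138 against 202.5 and 158 CPM), and both, like Scd2 in astrocytes, were among the 10 tests with an unadjusted p under 0.05 under the run block. In oligodendrocytes 7 members lay above and 1 below without overlap (background 12.3% and 13.5%), and 9 of 24 members with at least 100 UMIs were higher in both runs and 2 lower (background 23.5% and 26.0%). In neurons, the type with the most UMIs, 7 of 32 were higher in both runs and 4 lower (background 27.6% and 26.7%). Several neuronal differences changed sign between runs. Msmo1 differed by 0.51 in run 230 and -0.32 in run 232, Insig1 by 0.48 and -0.22, Scd2 by 0.53 and -0.10, and Apoe by 0.46 and -0.08.

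**Figure D5:**
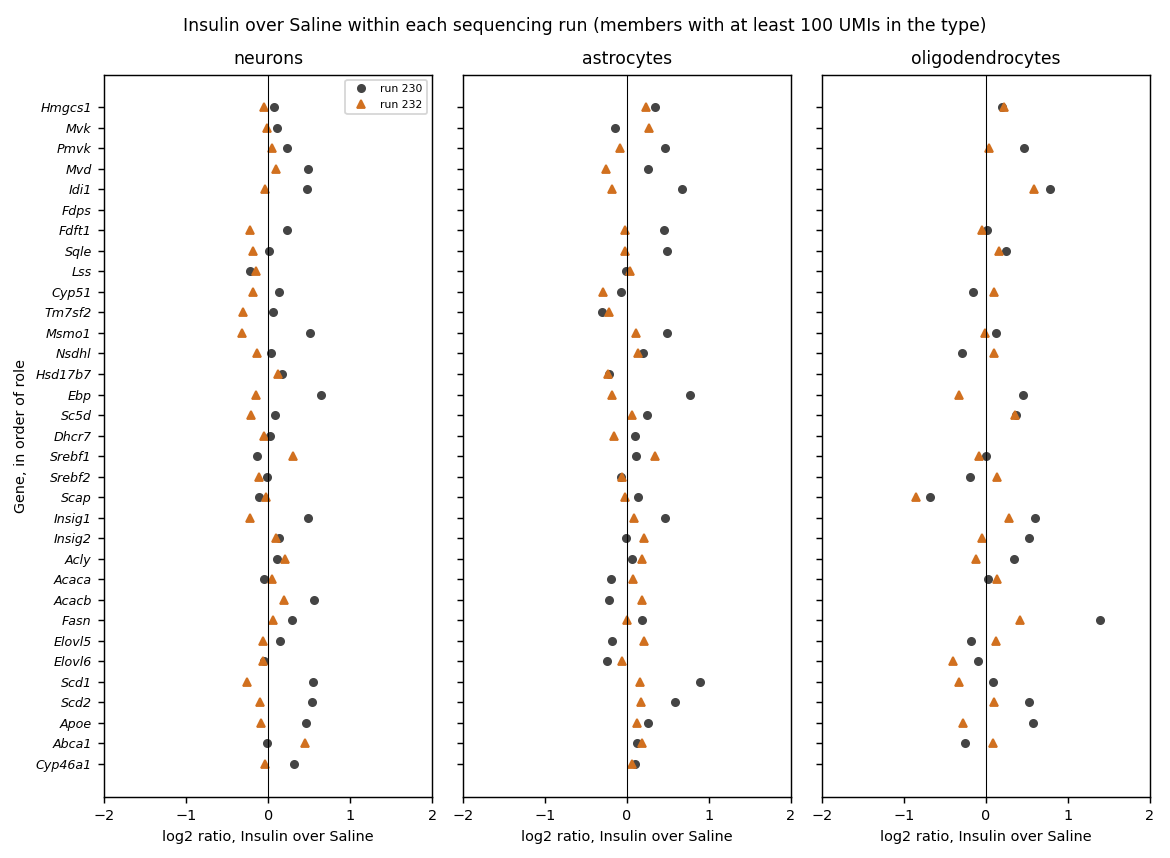
Log2 ratio of the Insulin over the Saline library within run 230 and within run 232 (points, shaped by run) for members with at least 100 UMIs in neurons, astrocytes and oligodendrocytes. In astrocytes 12 of 32 members lie above 0 in both runs and 5 below 0 in both, against 29.1% and 23.1% of all genes; no member was called in these types.

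In the 35 neuron populations, 0 of 996 member tests were called by edgeR, where 0.00111% of all tests were, and 23 had an unadjusted p under 0.05 (2.31%, against 2.34% of all tests). DESeq2 gave 0 calls and 1 such test. With the run as a block there were 0 member calls and 49 such tests (4.92%, against 6.31% of all tests, of which 627 were called), with the smallest adjusted p, 0.182, for Scd2 in M26.Agrp (log2 difference 0.80). Without Saline 232, 3 members were called higher (Ebp in M11.GLUT, Cyp46a1 in M16.Npsr1 and Msmo1 in M24.Avp/Oxt) and 1 lower (Elovl6 in M26.Agrp), while 1.33% of all tests were called. Leaving out any of the other 3 libraries gave 0.

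The difference of the Insulin effect between types was tested directly. No member was called between cell types (0 of 256 tests; 0.0% of all), with 11 at an unadjusted p under 0.05 by edgeR (4.30%, against 3.40% of all tests). limma-voom gave 23 such tests (8.98% against 8.87%) and 0 member calls, with 120 calls over all genes. Between neuron populations 0 of 1120 member tests were called (0.0025% of all), with 54 at an unadjusted p under 0.05 (4.82%, against 2.88% of all tests) by edgeR. limma-voom gave 0 member calls, 81 calls over all genes and 30 such member tests (2.68% against 2.71%), with a smallest adjusted p of 0.0562 for Elovl6 in M1.GABA.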

How the data were processed

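Nuclei of the mediobasal hypothalamus were counted with Cell Ranger on GRCm38, per the submitters' processing notes, which give no version. The authors deposited 1 matrix of raw UMI counts per gene and barcode (41156 barcodes, 31053 genes, at least 500 UMIs each) and a cell table with library, run, treatment, cell type and neuron population. Of 36534 annotated rows, 11 were not in the matrix; 4633 barcodes carried no annotation and 423 doublets and 1116 unassigned nuclei, as labelled by the authors, were left out. The library names match no sample title, so libraries are named by treatment and run.

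From these counts, UMIs were summed per library and cell type or neuron population (at least 10 nuclei in every library, which left out M13.Irx5 and M2.Hdc). Sums were tested over all genes with edgeR 4.0.16 in R 4.3.3 (TMM factors, quasi-likelihood F test). Groups were compared with the mean of the others, with the library as a block, for genes with at least 50 UMIs. Insulin was compared with Saline by treatment alone, for genes with at least 15 UMIs, with 2 residual degrees of freedom (1 with the run block); the difference of the effect between groups was tested as an interaction. Calls have a Benjamini-Hochberg adjusted p under 0.05. Standard errors are the log2 difference divided by the root of F. limma 3.58.1 (voom) and DESeq2 1.42.0 were alternatives, as were RLE factors, total UMIs, UMIs per nucleus, other filters, no library block and each library left out. The fits were tested on simulated counts. Gene positions are from GENCODE M21 (GRCm38), promoters from RefSeq GRCm38.p6. No overlap between gene models was resolved, and whether counting used strand is not given in the sources used here; Hmgcs1, Lss, Mvd, Fdft1, Cyp51, Srebf1, Acaca and Elovl6 overlap a gene model on the other strand.

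The members and gene lists were chosen with earlier results of these data known. Genes named are the 3 called members with the largest differences per type, the 12 largest over populations, members with an unadjusted p under 0.05 for Insulin, and the 3 largest called genes of each further list; examples from astrocytes and M25.Ghrh were named after their values were seen.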

Additional observations from a re-analysis of the deposited data

Results flagged for a closer look

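Of 64 values checked over the 4 libraries of both treatments (summed levels by role and the named genes of each cell type), 4 had 1 library far from the others by Dixon's ratio of gap to range at the 95% level; chance alone gives about 1 in 20. The summed sterol steps in astrocytes were at 516 CPM in Insulin 230 and at 421 to 425 CPM in the other libraries. The summed control genes in microglia were at 154 CPM in Insulin 232 and at 180 to 183 CPM in the others. The summed fatty acid genes in Ependymo-labelled nuclei were at 683 CPM in Insulin 230, which holds 16 of these nuclei, and at 526 to 544.5 CPM in the others. Tm7sf2 in Ependymo-labelled nuclei was at 8.46 CPM in Saline 232 and at 0 in the others.

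The members were also present in the 4633 barcodes without annotation, which no comparison used. They summed to 1871 CPM there (69495 UMIs), with Apoe at 679 CPM and Abca1 at 44.2 CPM.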

How the results depend on the processing

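The counts of called members over the cell types were 71 higher and 60 lower. Leaving out single libraries gave 62 to 71 higher and 39 to 49 lower, the lowest without Insulin 232. RLE size factors shared 116 of the 131 calls with none of opposite sign, whereas UMIs per nucleus shared 73 and turned 16. Over neuron populations the counts were 139 higher and 75 lower with the library as a replicate block. They were 79 and 47 without the replicate block (125 of 214 calls shared), and 231 and 126 per nucleus. The shares of all tests for the left-out libraries and for these population alternatives are not given here. Under UMIs per nucleus, 2 named differences reversed, Apoe in M1.GABA (-0.06) and Idi1 in M1.GABA (-0.47); the depth of these nuclei is part of that scaling.

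Insulin against Saline gave 0 member calls in each direction. Leaving out single libraries gave 0 to 1 higher in cell types, and 0 to 3 higher and 0 to 1 lower in neuron populations; the calls came without Saline 232, and the cause was not tested. With the run as a replicate block, 0 members were called. The labels' replicate numbers are not in the cell table, so the run was the only available pairing; deviations of libraries in the same run correlated at 0.751 in neurons, 0.615 in astrocytes and -0.168 in microglia.

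Of the other named values under the alternatives, 582 kept direction and side of the threshold, and 26 kept direction but fell short of it. These were Scd1 in OPC, Acacb in Endothelial-labelled nuclei, Dhcr7 in Mural-labelled nuclei, Tm7sf2 in Ependymo-labelled nuclei, Scd1 in M33.Glp1r/Ebf1, Idi1 in M1.GABA, and Acacb in M28.Tac2 and M33.Glp1r/Ebf1. The difference of the Insulin effect between neuron populations was not refitted with libraries left out.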
